A study of Gallus gallus with 12 samples.

Results

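The bone morphogenetic protein ligand BMP6 and the extracellular modulators FST, BMPER and SOSTDC1 were followed across 12 RNA-seq libraries of embryonic White Leghorn chicken skin. The 4 genes were chosen by symbol from the 12297 rows of a table of CPM, the reads of a row scaled per library to a common depth by the authors, where each has 1 row: transcript ENSGALT00000020862.4 for BMP6, ENSGALT00000024043.3 for FST, ENSGALT00000019894.4 for BMPER and ENSGALT00000043046.1 for SOSTDC1. The libraries form 6 groups of 2. Scale-forming skin came from the tarsometatarsus, the lower leg of the bird, at embryonic day 11 (E11) and at E9. Feather-forming skin came from the wing, the thigh and the back at E9, and from the back at E7. All embryos were untreated and of one breed, and the study set skin that forms scales against skin that forms feathers. The labels do not say whether the 2 libraries of a group came from separate embryos or pools, so the p-values below measure only the spread between libraries, which may be technical.

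BMPs are secreted members of the TGF-beta family that bind paired type I and type II receptors and act through SMAD proteins, and activins use a related receptor system with other SMADs. Secreted proteins that bind these ligands set how far and how strongly they act. In chick skin, BMP signalling is known to restrict where feather buds form and to act in later feather and scale growth. BMP6 is a ligand of the BMP5 to BMP7 subgroup. FST (follistatin) binds activins tightly and also binds several BMPs. BMPER, the vertebrate crossveinless-2, binds BMPs outside the cell and has been described both as an inhibitor and as an enhancer. SOSTDC1 (ectodin or Wise) binds BMPs and also affects Wnt signalling, and in the mouse it is known from tooth and hair placodes.

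Depth ranged from 13164611 to 20641981 reads per library on the listed rows, so that 1 read was worth 0.0475 to 0.0736 CPM. Replicates correlated with Spearman's rho of 0.987 to 0.996 in 5 groups and 0.970 in thigh skin. The labels name dermis in the titles and skin as the tissue. Epidermal markers were present in every library, since none of 17 measured epidermal rows was at 0, and the fibroblast marker PDGFRA ranged between 827 and 2092 CPM. The epidermal rows summed to only 98.1 to 766.8 CPM, against 13734.0 to 35672.6 CPM for 12 dermal fibroblast rows. Whether the dermis was separated is not clear from the labels, so the values below may not be those of whole skin. The dorsal E9 libraries stood apart in a second respect: SPINW, a gene of the female-specific W chromosome, had 0.26 and 0.15 CPM there, against 17.0 to 42.2 CPM in the other 10 libraries. For BMP6, FST, BMPER and SOSTDC1 in scale E9 against the feather regions, results are therefore given with and without dorsal E9. Marker lists were not refitted without it, and scale E11 was tested against no other feather region. In bulk tissue, fewer cells of a type and less RNA per cell cannot be told apart.

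BMP6, the ligand, was high in the older sample of each skin. It had 93.9 and 97.8 CPM in scale E11, 19.2 and 18.8 CPM in scale E9, 35.3 and 39.8 CPM in wing E9, 19.7 and 18.3 CPM in thigh E9, 89.8 and 91.2 CPM in dorsal E9, and 4.78 and 4.83 CPM in dorsal E7. The group means ordered as scale E11, dorsal E9, wing E9, thigh E9, scale E9 and dorsal E7, with a ratio of 19.95 between the first and the last. Thigh E9 and scale E9 overlapped in that order, and every other pair of neighbours was separated, the scale E11 and dorsal E9 libraries by a narrow gap. The difference of scale E11 from dorsal E9 was 0.08 ± 0.16 (log2 of CPM + 1, SE, limma adjusted p = 0.852), with a 95% interval of -0.25 to 0.42.

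FST had another order. It had 22.7 and 27.7 CPM in scale E11, 9.07 and 15.5 CPM in scale E9, 24.9 and 22.5 CPM in wing E9, 60.9 and 76.1 CPM in thigh E9, 98.1 and 106 CPM in dorsal E9, and 15.8 and 19.7 CPM in dorsal E7. Dorsal E9 and thigh E9 held the 4 highest libraries, and scale E9 the 2 lowest. Dorsal E9 exceeded scale E9 by a ratio of means of 8.28. Only scale E11 and wing E9 overlapped among neighbours in the order.

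BMPER was highest in the same feather-forming regions as FST. Its values were 66.6 and 70.2 CPM in scale E11, 31.1 and 31.9 CPM in scale E9, 24.0 and 26.2 CPM in wing E9, 124 and 91.6 CPM in thigh E9, 262 and 232 CPM in dorsal E9, and 14.8 and 15.5 CPM in dorsal E7. No neighbouring groups overlapped, and the mean in dorsal E9 was 16.3 times that in dorsal E7.

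SOSTDC1 was high in dorsal E9 skin and low in the other 5 groups. It had 29.3 and 12.8 CPM in dorsal E9, and between 0.97 and 3.74 CPM in the other 10 libraries. In those 10 libraries it rested on 17 to 64 reads, against 250 to 573 reads in dorsal E9. The 2 dorsal E9 libraries differed widely from each other, yet both were above every other library. The higher scale E9 library, at 3.74 CPM, stood above its replicate at 1.45 CPM and above all libraries outside dorsal E9. Its 17 epidermal rows summed to 766.8 CPM, against 356.5 CPM in its replicate, and the part of that difference was not tested. The groups other than dorsal E9 largely overlapped: thigh E9 with dorsal E7, scale E11 with thigh E9, and scale E9 with wing E9.

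**Figure D1:**
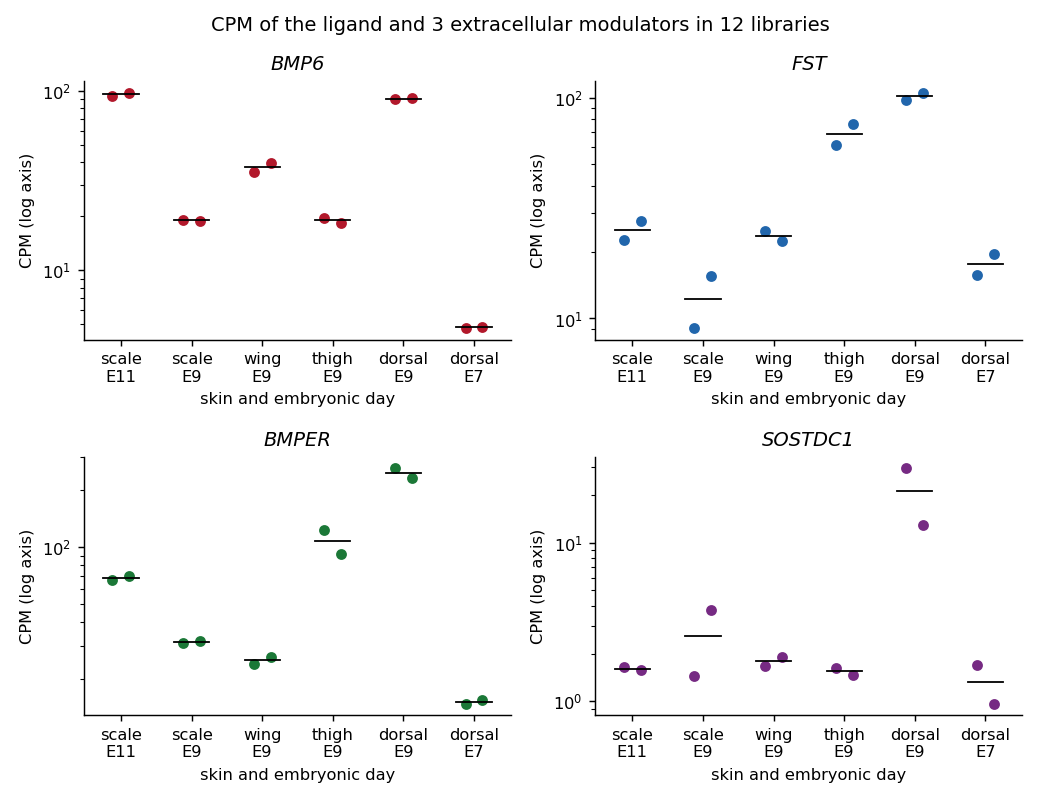
CPM on log axes for BMP6, FST, BMPER and SOSTDC1 in 6 groups of embryonic chicken skin. Points are the 2 libraries of each group and bars are their means; BMP6 peaks in scale E11 and dorsal E9, FST and BMPER in dorsal E9, and SOSTDC1 stands at 12.8 and 29.3 CPM in dorsal E9 against at most 3.74 CPM elsewhere.

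Scale-forming against feather-forming skin at E9 was the comparison the study was built on. BMP6, FST and BMPER were lower in scale E9 than in the mean of wing, thigh and dorsal E9, and FST differed most. BMP6 averaged 19.0 ± 0.28 CPM in scale E9, against 37.5 ± 3.15 in wing E9, 19.0 ± 0.97 in thigh E9 and 90.5 ± 0.94 in dorsal E9 (SD, n = 2 each). FST averaged 12.3 ± 4.57 CPM in scale E9, against 23.7 ± 1.73 in wing E9, 68.5 ± 10.7 in thigh E9 and 102 ± 5.29 in dorsal E9. BMPER averaged 31.5 ± 0.55 CPM in scale E9, against 25.1 ± 1.52 in wing E9, 108 ± 22.9 in thigh E9 and 247 ± 21.2 in dorsal E9. Scale E9 was thus below all 6 feather libraries for FST alone. For BMP6 it overlapped thigh skin, and for BMPER it lay above wing skin. The share of all rows separated as FST was not counted, so that gap is a description only.

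The limma fit gave -1.05 ± 0.13 for BMP6 (log2 of CPM + 1, SE, adjusted p = 8.16e-05), -2.12 ± 0.19 for FST (adjusted p = 6.83e-06) and -1.45 ± 0.14 for BMPER (adjusted p = 1.11e-05). Of the 4 genes, 3 were called lower, where 8.86% of all 12277 rows tested were called lower. The 4 genes were chosen with earlier results of these data known, so such counts, here and below, are a description only. SOSTDC1 was not called, at -0.62 ± 0.29 (adjusted p = 0.178). Without the dorsal E9 libraries, FST remained called at -1.68 (adjusted p = 0.000319) and BMPER at -0.71 (adjusted p = 0.0110), whereas BMP6 lost its call at -0.47 (adjusted p = 0.0569). SOSTDC1 then had the opposite sign, 0.36 (adjusted p = 0.377). It was called lower without the thigh libraries (-1.15, adjusted p = 0.0229), without the wing libraries (-1.08, adjusted p = 0.0299) and without dorsal E9 replicate 2 (-0.81, adjusted p = 0.0447), by limma in each case.

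Each region contrasted differently with scale E9. Against dorsal E9 all 4 genes were lower, with limma estimates of -2.19 for BMP6, -2.99 for FST, -2.93 for BMPER and -2.59 for SOSTDC1 (log2 of CPM + 1), where 12.6% of rows were called lower. Against thigh E9 only the modulators FST (-2.42 ± 0.23) and BMPER (-1.73 ± 0.17) were called lower, beside 12.7% of rows. BMP6 differed from thigh skin by 0.00 ± 0.16, with a 95% interval of -0.34 to 0.33, and SOSTDC1 by 0.42 ± 0.36 (limma adjusted p = 0.405). Against wing E9 the ligand BMP6 was lower (-0.95 ± 0.16, limma adjusted p = 0.00170) and so was FST (-0.93 ± 0.23, limma adjusted p = 0.0221), beside 4.13% of rows called lower. BMPER had 0.32 ± 0.17 against wing E9 (limma adjusted p = 0.313) and SOSTDC1 0.29 ± 0.36 (limma adjusted p = 0.714). The call of FST against wing skin was lost without wing E9 replicate 1 (-0.86, limma adjusted p = 0.171), without wing E9 replicate 2 (-1.01, limma adjusted p = 0.0776) and without scale E9 replicate 1 (-0.58, limma adjusted p = 0.237). These 3 contrasts share the scale E9 libraries. In the contrast with dorsal E9, region and the difference in W-linked RNA cannot be told apart.

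The feather-forming regions also differed among themselves. SPINW had 31.66 to 42.19 CPM in thigh and wing E9, against 0.26 and 0.15 CPM in dorsal E9. Region and W-linked RNA therefore cannot be told apart in the contrasts with dorsal E9. In thigh E9 against dorsal E9, BMP6 (-2.19), BMPER (-1.20) and SOSTDC1 (-3.01) were called lower, beside 16.5% of rows, and FST had -0.57 ± 0.23 (limma adjusted p = 0.0774). FST passed the threshold in that contrast without scale E9 replicate 1 (-0.57, limma adjusted p = 0.0397) or replicate 2 (-0.57, limma adjusted p = 0.0403), libraries that enter it only through the shared estimate of the spread. In wing E9 against dorsal E9 all 4 genes were called lower, from -1.25 for BMP6 to -3.24 for BMPER, beside 12.5% of rows. In wing E9 against thigh E9 the ligand and the modulators parted. BMP6 was higher in wing skin by 0.94 ± 0.16 (limma adjusted p = 0.00112), beside 9.25% of rows called higher. FST (-1.49 ± 0.23) and BMPER (-2.04 ± 0.17) were lower there, beside 11.6% of rows called lower, and SOSTDC1 had 0.13 ± 0.36 (limma adjusted p = 0.829).

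Lists of marker genes differed between scale and feather skin as well. The summed level of 7 smooth muscle and pericyte rows was 47.5 to 73.8 CPM in scale E9, against 67.1 to 98.2 in wing E9, 125.5 to 184.9 in thigh E9 and 532.0 to 661.1 in dorsal E9, and 7 of the 7 rows were called lower in scale E9. MYOCD, the regulator of the smooth muscle programme, was listed at 0 in 1 of its 2 rows in some scale and dorsal E7 libraries. The sum of 11 endothelial rows was 239.8 to 333.5 CPM in scale E9, against 350.9 to 464.5 in wing E9, 625.0 to 828.7 in thigh E9 and 1045.5 to 1302.1 in dorsal E9, with 8 rows called lower and none at 0. The sum of 17 epidermal rows was 356.5 to 766.8 CPM in scale E9, against 219.8 to 411.6 in wing E9, 269.4 to 348.0 in thigh E9 and 215.5 to 228.6 in dorsal E9, with 6 rows called higher. Over all rows 8.86% were called lower and 7.77% higher in this contrast. The 7 cartilage rows summed to 1274.8 to 1440.0 CPM in scale E9, against 383.7 to 425.7 in wing E9, 323.9 to 566.0 in thigh E9 and 610.9 to 661.8 in dorsal E9, with 3 called higher and no overlap. The 4 red blood cell rows summed to 133.1 to 230.3 CPM in scale E9, against 131.0 to 455.5 in wing E9, 694.9 to 832.0 in thigh E9 and 709.9 to 728.9 in dorsal E9, with 3 called lower. Of the 10 bud and placode rows 2 were called higher and 5 lower, of 12 dermal fibroblast rows 1 and 2, and of 7 Schwann cell and neuron rows 1 and 2. The counts above are against the mean of the 3 feather regions. Against wing E9 alone, 2 smooth muscle and pericyte, 2 endothelial and 0 red blood cell rows were called lower, beside 4.13% of rows. Against thigh E9 alone the counts were 3, 4 and 3, beside 12.7% of rows. Against dorsal E9 alone they were 7, 9 and 3, beside 12.6% of rows. None of the rows in these 3 lists was called higher. The part of these cell types in the levels of the 4 genes was not tested.

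**Figure D2:**
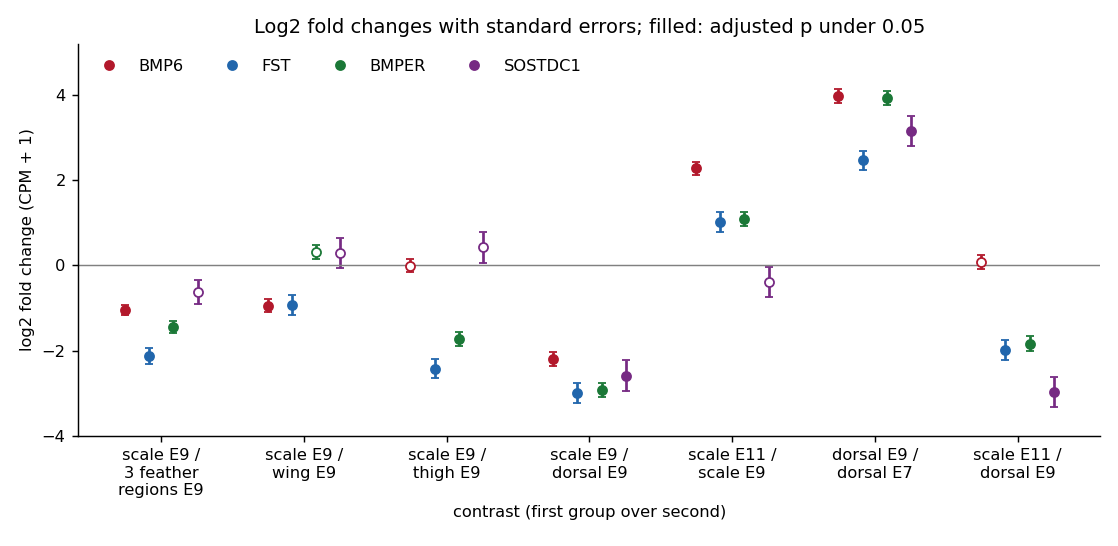
Log2 fold changes of BMP6, FST, BMPER and SOSTDC1 on the log2(CPM + 1) scale in 7 contrasts, first group over second, with SE bars from limma; filled points passed an adjusted p of 0.05. All 4 genes lie below 0 for scale E9 over dorsal E9, whereas BMP6 lies at 0.00 for scale E9 over thigh E9 and BMPER at 0.32 for scale E9 over wing E9.

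All 4 genes were higher in dorsal E9 than in dorsal E7. In the values given above, no dorsal E9 library overlapped a dorsal E7 library for any of them. The share of all rows separated in this way was not counted, so the gap is a description only. The limma estimates for dorsal E9 over dorsal E7 were 3.98 ± 0.16 for BMP6 (log2 of CPM + 1, SE, adjusted p = 2.20e-08), 2.47 ± 0.23 for FST (adjusted p = 6.99e-06), 3.94 ± 0.17 for BMPER (adjusted p = 3.12e-08) and 3.15 ± 0.36 for SOSTDC1 (adjusted p = 3.64e-05). All 4 were called higher, beside 12.2% of rows. The ligand and BMPER changed by nearly the same amount, so the ratio between them moved little while both levels rose.

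FST lies on chromosome Z in the GRCg7b gene table, the sex chromosome that chicken males carry in a pair, and the dorsal E9 libraries had next to no W-linked RNA. Over 473 tested rows on chromosome Z the median log2 change from limma was 0.24 for dorsal E9 over dorsal E7, against 0.02 over 9494 rows placed elsewhere. The estimate for FST was 2.47, and a median over many rows sets no bound on a single row. For scale E9 over dorsal E9 the chromosome Z median was -0.23, against -0.01 elsewhere, with -2.99 for FST. The sex of the embryos is not labelled, and age and this difference cannot be told apart in dorsal skin. In contrasts of other regions with dorsal E9, region and this difference cannot be told apart either.

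The smooth muscle and pericyte rows summed to 532.0 to 661.1 CPM in dorsal E9, against 72.4 to 73.8 in dorsal E7, and 7 of 7 were called higher. The endothelial rows summed to 1045.5 to 1302.1 CPM in dorsal E9, against 559.5 to 568.2 in dorsal E7, with 8 of 11 called higher. The epidermal rows summed to 215.5 to 228.6 CPM in dorsal E9, against 98.1 to 127.4 in dorsal E7, with 10 of 17 called higher. Over all rows 12.2% were called higher and 7.96% lower in this contrast. The 10 bud and placode rows summed to 2317.3 to 2708.1 CPM in dorsal E9, against 1963.9 to 2007.4 in dorsal E7, with 5 called higher and 1 lower. That sum did not set dorsal E9 apart, since it was 2583.8 to 2887.9 CPM in thigh E9 and 2351.6 to 2558.9 CPM in wing E9. Rows at low levels, such as SHH at no more than 3.37 CPM, add little to it. Row by row, 4 of the 10 were called lower and 1 higher in thigh E9 than in dorsal E9, beside 16.5% of rows called lower. In wing E9 against dorsal E9, 4 were called lower and 2 higher, beside 12.5% of rows called lower. Within that list, and chosen after its values were seen, the ectodysplasin receptor Edar had 61.6 and 70.2 CPM in dorsal E9, against 2.70 to 10.1 CPM in the other libraries. BMP2, in the same list, went the other way, with 10.06 and 13.65 CPM in dorsal E9, against 21.05 and 25.36 CPM in dorsal E7. Other sums were lower in dorsal E9. The 6 melanocyte rows summed to 40.2 to 50.5 CPM in dorsal E9, against 137.1 to 146.8 in dorsal E7, with 1 called higher and 1 lower, and the 7 Schwann cell and neuron rows to 69.7 to 86.7 CPM in dorsal E9, against 151.0 to 170.4 in dorsal E7, with 1 called higher and 1 lower. The part of these markers in the change of the 4 genes was not tested.

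Scale-forming skin changed with age in 3 of the 4 genes, and the ligand changed most. For scale E11 over scale E9, limma gave 2.28 ± 0.16 for BMP6 (log2 of CPM + 1, SE, adjusted p = 1.65e-05), 1.02 ± 0.23 for FST (adjusted p = 0.02) and 1.10 ± 0.17 for BMPER (adjusted p = 0.00177), beside 4.37% of rows called higher. SOSTDC1 had -0.39 ± 0.36 (adjusted p = 0.660), with a 95% interval of -1.16 to 0.38. The libraries of the 2 ages did not overlap for BMP6, FST or BMPER, a description for which the share over all rows was not counted. The call of FST was lost without scale E9 replicate 1 (0.66, limma adjusted p = 0.156), without scale E11 replicate 1 (1.15, limma adjusted p = 0.0540) and without scale E11 replicate 2 (0.88, limma adjusted p = 0.194). Endothelial rows summed to 693.6 to 773.5 CPM in scale E11, against 239.8 to 333.5 in scale E9, with 8 of 11 called higher. Smooth muscle and pericyte rows summed to 132.9 to 133.7 CPM in scale E11, against 47.5 to 73.8 in scale E9. Of these 7 rows, 2 were called higher. Epidermal rows summed to 310.2 to 391.2 CPM in scale E11, against 356.5 to 766.8 in scale E9, with 0 of 17 called. The 12 dermal fibroblast rows summed to 33396.0 to 35672.6 CPM in scale E11, against 23899.1 to 26038.2 in scale E9, with 2 called higher. Much of that sum was the collagen row COL1A2, at 22464.3 and 19471.3 CPM in scale E11 and 13703.7 and 16026.6 CPM in scale E9. The part of these cell types in the change was not tested.

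The change with age was smaller in scale skin than in dorsal skin for all 4 genes. The age spans differ, E9 to E11 in scale skin and E7 to E9 in dorsal skin. SPINW fell from 17.0 and 28.14 CPM in dorsal E7 to 0.26 and 0.15 CPM in dorsal E9. It was 18.14 to 38.06 CPM in the scale libraries of both ages. For scale minus dorsal change, the chromosome Z median was -0.21, against -0.00065 over rows placed elsewhere. The part of age span or W-linked RNA was not tested. The difference of the 2 changes, scale minus dorsal, was -1.70 ± 0.22 for BMP6 (limma adjusted p = 0.000635), -1.45 ± 0.33 for FST (limma adjusted p = 0.0218), -2.84 ± 0.24 for BMPER (limma adjusted p = 2.69e-05) and -3.54 ± 0.50 for SOSTDC1 (limma adjusted p = 0.00117), beside 3.01% of rows called lower. For FST the call was lost without dorsal E7 replicate 1 (-1.30, limma adjusted p = 0.118), dorsal E9 replicate 1 (-1.5, limma adjusted p = 0.0696), dorsal E9 replicate 2 (-1.40, limma adjusted p = 0.0752), scale E9 replicate 2 (-1.09, limma adjusted p = 0.0883) or scale E11 replicate 1 (-1.31, limma adjusted p = 0.0979).

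Scale E11 and dorsal E9, the group where all 3 modulators were highest, differ in age, region and W-linked RNA. SPINW had 24.85 and 23.38 CPM in scale E11, against 0.26 and 0.15 CPM in dorsal E9. These differences cannot be told apart here. Setting the later scale sample against dorsal E9 separated the ligand from its modulators. BMP6 differed by 0.08 ± 0.16, as given above. FST (-1.98 ± 0.23), BMPER (-1.83 ± 0.17) and SOSTDC1 (-2.97 ± 0.36) were all called lower in scale E11, beside 6.09% of rows. In the same contrast 6 of 7 smooth muscle and pericyte rows, 3 of 11 endothelial rows and 5 of 10 bud and placode rows were called lower, and the chromosome Z median was -0.23. Of the bud and placode rows 1 was called higher, and 2 of 4 red blood cell rows were called lower. The 12 dermal fibroblast rows summed to 33396.0 to 35672.6 CPM in scale E11, against 14567.3 to 15639.8 in dorsal E9, with 5 called higher and 1 lower. Much of that sum was the collagen row COL1A2, at 22464.3 and 19471.3 CPM in scale E11 and 6372.9 and 6118.2 CPM in dorsal E9. PDGFRA went the other way, at 964 and 1244 CPM in scale E11 and 1506 and 1565 CPM in dorsal E9. The 7 cartilage rows summed to 1383.2 to 1819.4 CPM in scale E11, against 610.9 to 661.8 in dorsal E9, with 2 called higher and 1 lower, where 5.82% of all rows were called higher. The part of these cell types was not tested. Scale E11 was not tested against wing or thigh E9. BMP6 and BMPER averaged 95.9 and 68.4 CPM in scale E11, above 37.5 and 25.1 CPM in wing E9, where FST overlapped scale E11. In thigh E9, FST and BMPER averaged 68.5 and 108 CPM, above scale E11. In scale E9 against dorsal E7, BMP6 (1.78 ± 0.16) and BMPER (1.01 ± 0.17) were higher, beside 7.52% of rows called higher. FST had -0.53 ± 0.23 in that contrast (limma adjusted p = 0.185) and SOSTDC1 0.57 ± 0.36 (limma adjusted p = 0.415). FST passed the threshold there without scale E9 replicate 2 (-0.89, limma adjusted p = 0.0356).

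The ratio of each modulator to BMP6 was taken within each library, on CPM + 1. The added 1 CPM pulls the ratios of low values towards 0, most of all for SOSTDC1. The deposited values are not divided by transcript length, so only the movement of a ratio between groups can be read, not its height. The log2 ratio of FST to BMP6 was -2.0 to -1.78 in scale E11, -1.0 to -0.26 in scale E9, -0.80 to -0.49 in wing E9, 1.58 to 1.99 in thigh E9, 0.13 to 0.21 in dorsal E9 and 1.54 to 1.83 in dorsal E7. It was lowest in scale E11 and highest in thigh E9 and dorsal E7, which overlapped, as did scale E9 and wing E9.

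The ratio of BMPER to BMP6 ran from -0.49 to -0.47 in scale E11, 0.67 to 0.73 in scale E9, -0.58 to -0.54 in wing E9, 2.26 to 2.59 in thigh E9, 1.34 to 1.53 in dorsal E9 and 1.45 to 1.5 in dorsal E7. Both dorsal ages overlapped on this scale, although BMP6 and BMPER each differed between them by close to 4 on the log2 scale. Without the added 1 CPM the plain ratio of BMPER to BMP6 was 2.54 to 2.91 in dorsal E9 and 3.09 to 3.20 in dorsal E7, with no overlap. Thigh skin was again highest, and wing E9 and scale E11 were lowest.

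The ratio of SOSTDC1 to BMP6 ran from -5.26 to -5.17 in scale E11, -3.04 to -2.06 in scale E9, -3.81 to -3.77 in wing E9, -2.98 to -2.97 in thigh E9, -2.74 to -1.59 in dorsal E9 and -1.57 to -1.10 in dorsal E7. Scale E11 was lowest for both FST and SOSTDC1 relative to BMP6. The gap between the dorsal ages came with the added 1 CPM: the plain ratio of SOSTDC1 to BMP6 was 0.141 to 0.326 in dorsal E9 and 0.201 to 0.354 in dorsal E7, which overlap. In dorsal E7 SOSTDC1 rested on 17 to 23 reads.

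The ratios of scale E9 were also set against the 3 feather regions together. The mean log2 ratio of FST to BMP6 was -0.63 in scale E9 and 0.44 in feather skin, a difference of -1.07 (exact two-sided permutation test over 2 against 6 libraries, p = 0.25). For BMPER the means were 0.70 in scale E9 and 1.10 in feather skin, a difference of -0.40 (exact permutation p = 0.714), and for SOSTDC1 -2.55 in scale E9 and -2.98 in feather skin, a difference of 0.42 (exact permutation p = 0.643). The p-values adjusted over these 3 tests were 0.714 each, and the smallest p that 28 arrangements allow is 0.0357, or 0.107 after adjustment where a single ratio reaches it. The design could therefore hardly pass the threshold, and the p-values say little about whether the ratios differ. The feather libraries spread over 3 regions that themselves stood apart, from wing below scale E9 to thigh above it for BMPER.

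**Figure D3:**
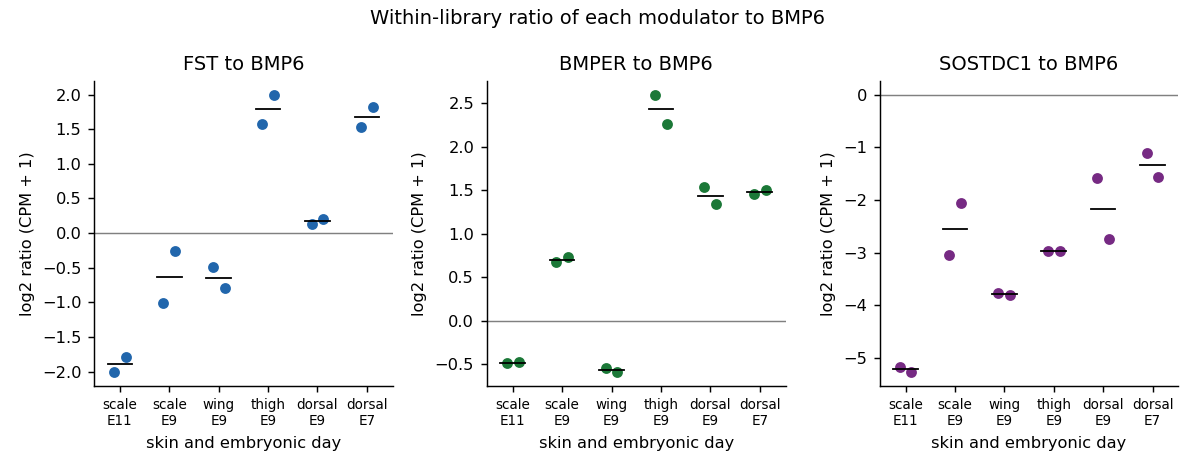
Log2 ratio of FST, BMPER and SOSTDC1 to BMP6 within each library, on CPM + 1, for the 6 groups. Points are libraries and bars are group means; scale E11 is lowest for FST and SOSTDC1, wing E9 and scale E11 are lowest for BMPER, and thigh E9 is highest for BMPER at 2.26 to 2.59.

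Other genes of the BMP, activin and TGF-beta pathway moved both ways. Of 87 listed genes 64 were measured, and all 64 were tested. In scale E9 against the 3 feather regions 11 were called higher and 15 lower, where 7.77% and 8.86% of all rows were. The median log2 change of the 64 was 0.01, against -0.01 over all rows. Among the 8 BMP ligands 2 were higher and 4 lower, among the 6 activin and TGF-beta ligands 1 higher and 3 lower, among the 14 receptors and co-receptors 1 higher and 3 lower, among the 18 other extracellular modulators 3 higher and 2 lower, among the 7 intracellular genes 1 higher and none lower, and among the 11 targets and feedback genes 3 higher and 3 lower. The counts were 7 higher and 11 lower without scale E9 replicate 1, and 7 higher and 9 lower without scale E9 replicate 2.

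Of the genes named by size within each role, 9 of 21 kept their call in scale against feather skin under every alternative setting, and values are given for these; that restriction was made after the data were seen. BMP2, a ligand of placodes and early buds, had 35.5 and 30.9 CPM in scale E9, against 8.79 to 26.2 CPM in the 6 feather libraries, with a limma estimate of 1.11 ± 0.19. Unlike BMP6, it was higher in scale skin, with no overlap, a description for which the share over all rows was not counted. The BMP ligands GDF2 (-1.33 ± 0.20) and GDF10 (-1.30 ± 0.22) were lower, as was GDF3, the row named cVg1 (-1.82 ± 0.17), a ligand first known for its role in the early embryo. GDF2 had 1.59 and 0.88 CPM in scale E9 and 2.13 and 2.79 CPM in thigh E9, against 3.82 to 10.52 CPM in wing and dorsal E9. GDF10 had 10.87 and 5.95 CPM in scale E9 and 15.26 and 11.44 CPM in thigh E9, against 16.08 to 48.11 CPM in wing and dorsal E9. GDF3 had 1.94 and 2.57 CPM in scale E9 and 3.39 and 2.79 CPM in thigh E9, against 13.4 to 22.5 CPM in wing and dorsal E9. FSTL1, a secreted follistatin-like protein, averaged 443 ± 133 CPM in scale E9, against 859 ± 59.8 in wing E9, 945 ± 1.90 in thigh E9 and 1477 ± 162 in dorsal E9 (SD, n = 2 each), a change of -1.29 ± 0.17. VWC2, a secreted protein with von Willebrand factor type C domains that binds BMPs, was higher in scale skin by 1.11 ± 0.18, at 3.46 and 3.62 CPM in scale E9. Among targets, the homeobox gene MSX1 was higher (1.75 ± 0.24), and the matrix protein TGFBI (-1.57 ± 0.21) and the decoy receptor BAMBI (-0.81 ± 0.17) were lower. Each was close to 1 feather region. MSX1 had 10.18 and 11.62 CPM in scale E9 and 7.95 and 8.98 CPM in wing E9, against 0.84 to 1.63 CPM in thigh and dorsal E9. TGFBI had 40.86 and 27.72 CPM in scale E9 and overlapped thigh E9, at 74.71 and 39.96 CPM. BAMBI had 11.84 and 12.02 CPM in scale E9 and 12.12 and 18.27 CPM in thigh E9. The other 12 named genes, BMP5, INHBB, NODAL, INHBA, RGMA, ACVRL1, ACVR2B, TGFBR3, TLL2, NBL1, SMAD9 and MSX2, each lost their call in at least 1 setting.

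In dorsal E9 against dorsal E7, 15 of the 64 were called higher and 13 lower, where 12.2% and 7.96% of all rows were. BMP ligands split into 5 higher and 3 lower, activin and TGF-beta ligands into 2 and 1, receptors and co-receptors into 1 and 2, and other extracellular modulators into 4 and 4. Intracellular genes had none higher and 1 lower, and targets and feedback genes 3 higher and 2 lower. The count of lower genes was 3 without dorsal E7 replicate 1, 2 without dorsal E7 replicate 2, 2 without dorsal E9 replicate 1 and 6 without dorsal E9 replicate 2.

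Of 19 named genes, 11 kept their call with age in dorsal skin under every setting in which they were tested. For SMAD7 that was 22 alternative settings, and for the rest of these genes 23. GDF10, a BMP3-related ligand, had 48.1 and 32.6 CPM in dorsal E9, against 2.13 and 2.10 CPM in dorsal E7, a change of 3.71 ± 0.27 beside 3.98 for BMP6. GDF2 had 10.5 and 7.03 CPM in dorsal E9, and was listed at 0 and at 0.11 CPM in dorsal E7, below the 0.221 and 0.171 CPM that 3 reads are worth in those libraries. BMP4, a ligand of the bud mesenchyme, averaged 113 ± 24.0 CPM in dorsal E9 and 28.8 ± 9.23 CPM in dorsal E7 (SD, n = 2 each), and BMP5 averaged 27.4 ± 2.45 CPM in dorsal E9 and 5.97 ± 1.76 CPM in dorsal E7. CHRDL1, a chordin-like BMP antagonist, was higher by 2.93 ± 0.51, FSTL1 by 1.51 ± 0.21, the co-receptor TGFBR3 by 1.45 ± 0.22 and GDF3 by 1.44 ± 0.21. TGFBI was higher by 2.82 ± 0.25 and the homeobox target MSX2 by 2.28 ± 0.32. SMAD7, an inhibitory SMAD, was listed at 0 and at 0.05 CPM in dorsal E9, against 1.55 and 2.44 CPM in dorsal E7. The other 8, INHBB, INHBA, ACVR2A, BMPR1A, LTBP2, CHRDL2, SMAD1 and BAMBI, lost their call in at least 1 setting.

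In scale E11 against scale E9, 10 of the 64 were called higher and 3 lower, where 4.37% and 1.46% of all rows were. The higher genes were 2 BMP ligands, 1 receptor, 5 extracellular modulators and 2 targets, and the lower ones 1 activin or TGF-beta ligand, 1 intracellular gene and 1 target. The count of higher genes was 4 without scale E9 replicate 2 and 4 without scale E11 replicate 2, and the count of lower genes ran from 0 to 5 as each library was left out. Of 12 named genes, 3 kept their call under every setting. GDF10 had 41.0 and 43.1 CPM in scale E11, against 10.9 and 5.95 CPM in scale E9, a change of 2.24 ± 0.27 beside 2.28 for BMP6. TGFBI averaged 198 ± 25.4 CPM in scale E11 and 34.3 ± 9.29 CPM in scale E9, and FSTL1 averaged 1370 ± 143 CPM in scale E11 and 443 ± 133 CPM in scale E9 (SD, n = 2 each). The other 9, among them GDF2, INHBA, ACVR2B, FSTL3, TLL1, SMAD1, BAMBI and ID2, lost their call in at least 1 setting.

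**Figure D4:**
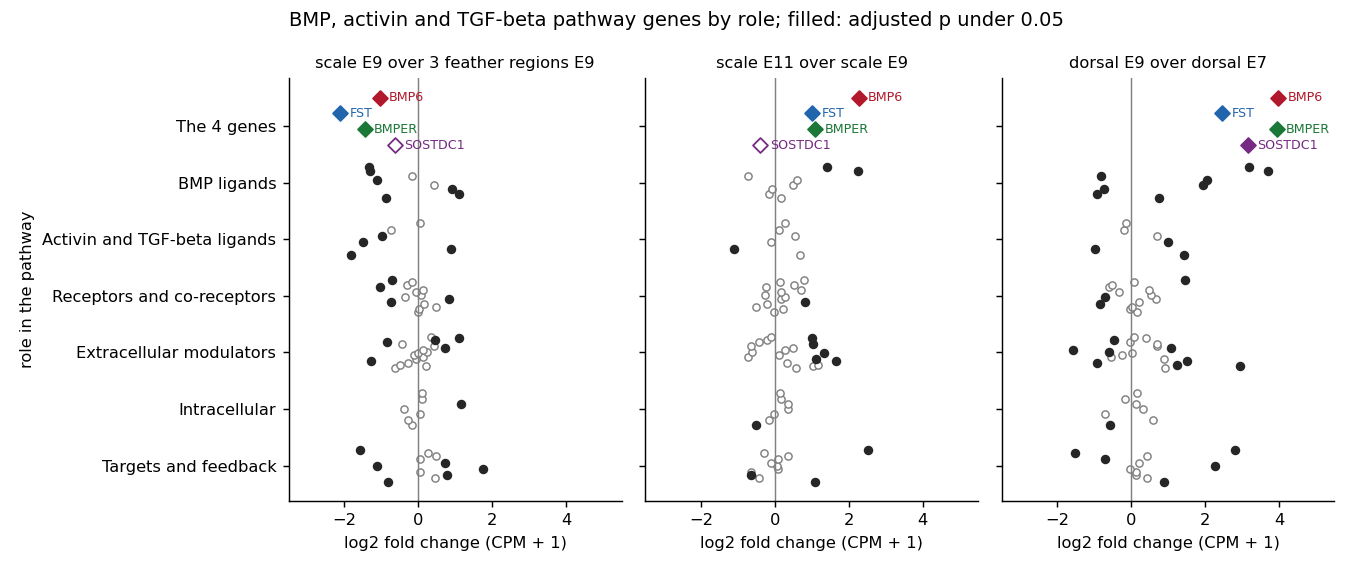
Log2 fold changes on the log2(CPM + 1) scale of the 4 genes (diamonds) and of 64 other pathway genes by role (circles) in 3 contrasts, first group over second; filled symbols passed a limma adjusted p of 0.05. Pathway genes lie on both sides of 0 in each contrast, with 11 higher and 15 lower for scale E9 over the feather regions, 10 and 3 for scale E11 over scale E9, and 15 and 13 for dorsal E9 over dorsal E7.

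The rows whose profile over the 12 libraries was most like each gene were ranked by Pearson's r of log2(CPM + 1) among 9591 rows. The points are 6 groups of 2, so they are not independent, and the r is a description. BMP6 was closest to GDF10 (r = 0.976), followed by the co-chaperone DNAJC12, PTGFRN, the nicotinic receptor subunit CHRNA2 and the epoxide hydrolase EPHX2, with r of at least 0.961. FST was closest to the peptide-amidating enzyme PAM (r = 0.964), the basement membrane protein NID1, ZDHHC21, C4orf19 and ESM1, which endothelial cells secrete (r = 0.937). Among the rows closest to BMPER were the adhesion receptor ADGRD1 (r = 0.954), the scavenger receptor SCARA5, SERINC5 and GALNT16 (r = 0.936). Among the rows closest to SOSTDC1 were the valine-degrading enzyme HIBADH (r = 0.952), ZBTB7C, SBSPON and GCH1, which starts tetrahydrobiopterin synthesis (r = 0.948).

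Among themselves the modulators FST and BMPER were most alike (r = 0.865), and each was in the first 55 of the 9591 rows for the other. BMPER and SOSTDC1 had r = 0.705, BMP6 and BMPER 0.689, FST and SOSTDC1 0.632, BMP6 and SOSTDC1 0.513, and BMP6 and FST 0.448. The ligand thus shared less of its profile with FST than with BMPER. All these values take in the high dorsal E9 libraries, which every one of the 4 genes has in common.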

How the data were processed

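The deposited values are a signal on a CPM scale, scaled by the authors per library and given to 2 decimals, for 12297 rows and 12 Illumina TruSeq libraries of total RNA from dissected tissue, per the labels' protocols. The columns sum to between 958975 and 1210599, the highest in thigh E9 replicate 2, so the scaling was not by the total of these rows alone. TopHat2, Partek, HTSeq, edgeR and the galGal4 build are named in the submitters' processing notes, without roles or versions. All columns were matched to samples by title, and 0 columns were left without one. A row was tested if 2 or more libraries reached 1 CPM, which removed 20 rows and left 12277.

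log2(CPM + 1) was fitted with limma 3.58.1 in R 4.3.3, with 1 mean per group over all 12 libraries, a mean-variance trend, 6 residual and 6.95 prior degrees of freedom, and two-sided Benjamini-Hochberg adjustment over all rows in each of 12 contrasts, called under 0.05. A fold change on this scale understates the change of low genes. The fit was tested on simulated data. Whole reads were recovered from the CPM steps: all values up to 100 CPM in each library were whole within 0.0055 CPM of a fitted step. For thigh E9 replicate 2 a stricter check of the recovery was not met. edgeR 4.0.16 and DESeq2 1.42.0 on the recovered reads, that library included, were alternatives only. Permutation tests enumerated all arrangements (SciPy 1.17.1 and pandas 2.3.3 were used for tables). Other alternatives were pseudocounts of 0.5 and 2 CPM, other filters and scalings, a fit to the compared libraries alone, no trend, a replicate block, and leaving out each library or feather region.

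The members and lists were chosen with earlier results of these data known. The named genes were the 4 members, up to 4 called pathway genes per role with the largest change in each of 3 contrasts, and the 5 rows most like each member with a group mean of at least 5 CPM; a few genes that this rule names are not reported here. The pathway genes were run through the alternatives after seeing the data. Symbols were matched through a RefSeq table of the GRCg7b assembly, which also gave the chromosome of 9982 rows. No coordinates or sequences are given. Read counts and the 3-read floors cover counting error only.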

Additional observations from a re-analysis of the deposited data

Results flagged for a closer look

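For all 4 genes the change with age differed between scale-forming and dorsal skin by a test of the difference itself, as limma's contrast of E11 minus E9 in scale skin against E9 minus E7 in dorsal skin. The difference was -1.70 for BMP6, -1.45 for FST, -2.84 for BMPER and -3.54 for SOSTDC1 on the log2(CPM + 1) scale. For FST the call was lost when 1 of 5 libraries was left out, with limma adjusted p between 0.0696 and 0.118. BMP6, FST and BMPER were higher at the later age in both skins, by a wider margin in dorsal skin. SOSTDC1 was higher at the later age in dorsal skin (3.15) and had -0.39, not called, in scale skin. The ages compared are not the same in both skins. The dorsal E9 libraries, which enter each difference and each dorsal change, had SPINW at 0.26 and 0.15 CPM. The part of either in the differences was not tested.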

How the results depend on the processing

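Over 48 results for the 4 genes, 1097 of 1116 values under alternative settings kept their side of the threshold, 12 lost a call, 7 gained one and 0 called values changed sign; 33 of 37 called results were called throughout. In scale E9 against feather skin, BMP6 lost its call without the dorsal E9 libraries (-0.47), and SOSTDC1 gained one without the thigh (-1.15) or wing (-1.08) libraries; leaving out each library in turn moved SOSTDC1 between -1.10 and -0.15. FST in scale E11 against scale E9 moved between 0.66 and 1.37 as each library was left out. The rows called numbered 1010 to 3743 in scale against feather skin (2042 with all libraries), 1289 to 3651 in dorsal skin by age (2471) and 203 to 1345 in scale skin by age (716) as each library was left out, and 4483 in dorsal skin by age when only its own libraries were fitted; such settings leave fewer libraries in the fit. In scale skin by age 537 rows were called higher and 179 lower, against 457 and 251 after quantile normalization. Leaving out 1 library leaves its group with 1, assumed to vary like the others. The replicate numbers were not taken as pairs: deviations of same-numbered libraries correlated between -0.101 and 0.235 over 15 pairs of groups, above 0.1 in 5. With the replicate block the calls of the 4 genes changed only for FST in thigh against dorsal skin (-0.57, limma adjusted p = 0.0443), and 2160, 2601 and 736 rows were called in the 3 main contrasts. SOSTDC1 is limited by depth, at 17 to 64 reads outside dorsal E9. The count-based alternatives include the thigh library whose reads were less securely recovered.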
